A study of Mus musculus with 15 samples.

Results

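The thick ascending limb is the stretch of the loop of Henle that takes up sodium, potassium and chloride from the tubular fluid without water. Its 6 genes described here were Umod, Egf, Slc12a1, Kcnj1, Bsnd and Ptger3, chosen by name as a transport system, with earlier results of these data known. Every array probe annotated to one of these symbols was used, which gave 16 probes of the 45281 on the array and 6 of the 19038 genes that the annotation names. A probe was tested where its detection p-value, the share of negative control beads at least as bright, was under 0.05 on at least 3 arrays. That left 13 of the 16 probes, and 9 were detected on every array. Both probes of Ptger3 and 1 probe of Slc12a1 were too dim to be tested.

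Whole-kidney RNA of 15 male C57BL/6 mice on an AIN-93G diet was measured on Illumina MouseWG-6 arrays, with 1 mouse per array. In the restricted groups a water bottle was offered for 15 min per day from weaning at 3 weeks of age, and in the control groups water was always available. Restricted mice were killed a day after their last bottle, and the paper reports that they ate less in the first days. The part of either in the differences below was not tested. RES 1W (4 mice) and CON 1W (4 mice) were killed at 4 weeks of age, and RES 4W (4 mice) and CON 4W (3 mice) at 7 weeks. The comparisons ask what restriction did to these genes after 1 week and after 4 weeks, and how they differed between the control mice of both ages. Since the samples are whole kidneys, fewer cells of a segment and less RNA per cell cannot be told apart.

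Background on the segment is as follows. The cotransporter made from Slc12a1 (NKCC2) carries sodium, potassium and chloride across the apical membrane, and the channel made from Kcnj1 (ROMK) returns potassium to the lumen so that the cotransporter can go on. Chloride leaves the cell through basolateral channels that need barttin, the subunit made from Bsnd. The salt deposited in the medulla is what lets the collecting duct concentrate urine under vasopressin. Umod encodes uromodulin, the most abundant protein of normal urine, Egf encodes the precursor of epidermal growth factor, which is made in the thick ascending limb and early distal convoluted tubule, and Ptger3 encodes a prostaglandin E2 receptor that restrains salt uptake there.

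Promoters are shown for Slc12a1 and Kcnj1, whose levels ran together in these kidneys, and for Umod, whose level did not pass the test in any comparison. Each is the 250 bases upstream of the transcription start in RefSeq's annotation of GRCm38.p6, written 5′ to 3′ on the gene's strand. Capitals mark GTTAAT, one arm of the palindrome that HNF1 factors bind, and TGGAAA, the core of the site bound by the osmotic factor NFAT5, searched on both strands (ATTAAC and TTTCCA are the reverse complements). No match overlapped another. The Slc12a1 stretch is chr2:125152350-125152599 (+ strand), that of Kcnj1 is chr9:32393735-32393984 (+ strand) and that of Umod is chr7:119479263-119479512 (- strand).
Slc12a1: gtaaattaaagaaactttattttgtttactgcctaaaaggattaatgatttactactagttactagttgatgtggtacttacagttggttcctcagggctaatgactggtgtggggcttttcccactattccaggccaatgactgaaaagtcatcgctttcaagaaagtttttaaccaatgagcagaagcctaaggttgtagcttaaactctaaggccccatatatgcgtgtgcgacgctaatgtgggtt
Kcnj1: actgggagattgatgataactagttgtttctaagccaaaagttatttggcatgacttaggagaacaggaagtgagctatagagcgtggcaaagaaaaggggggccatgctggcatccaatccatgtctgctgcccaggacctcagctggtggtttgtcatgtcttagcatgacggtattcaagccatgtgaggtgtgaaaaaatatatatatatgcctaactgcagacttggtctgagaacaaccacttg
Umod: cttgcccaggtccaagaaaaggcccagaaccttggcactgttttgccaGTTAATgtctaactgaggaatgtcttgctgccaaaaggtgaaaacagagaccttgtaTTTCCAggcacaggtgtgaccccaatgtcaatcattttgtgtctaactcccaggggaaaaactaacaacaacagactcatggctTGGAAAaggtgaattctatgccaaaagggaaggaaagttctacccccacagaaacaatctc
In the Umod window GTTAAT occurred 1 time and TGGAAA, read on either strand, 2 times, whereas the Slc12a1 and Kcnj1 windows held neither. Among 32851 RefSeq promoters, 6.43% held GTTAAT and 18.6% held TGGAAA. A match is only a run of letters, and its absence says nothing about a factor. Of the 6 genes, 5 had a promoter in the table used.

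One array has to be named before the results. On the leading principal component (28.3% of the variance among tested probes), RES 4W replicates 2, 3 and 4 scored 38.6 to 39.5, and the other 12 arrays, RES 4W replicate 1 among them, scored -12.8 to -6.06. Its label was taken as given, but the array stands apart from the rest of its group, so every RES 4W mean and call here rests on a label that these values leave in doubt. The RES 4W log2 fold changes of the member genes are therefore given with and without replicate 1. Levels below are log2 values after quantile normalization, and a difference of levels is a log2 fold change, tested by limma over all 19027 tested probes with Benjamini-Hochberg adjustment. A probe was called at an adjusted p under 0.05. The exact permutation test over arrays, two-sided, cannot give a p below 0.0286 for 4 arrays against 4 or for 4 against 3.

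Slc12a1 was higher in RES 1W kidneys than in CON 1W kidneys on each of its 3 bright probes, by 1.47-fold to 1.62-fold, and these were the 3 called of the 13 tested probes after 1 week. The 3 calls are 23.1% of the tested member probes, whereas 2.81% of all tested probes were called in that comparison (1.42% higher and 1.38% lower). They come from 1 transcript measured on the same arrays, so they are not 3 independent results. For 5 of the 13 member probes the groups were free of overlap, against 10.1% of all tested probes, and the median log2 fold change was 0.25 over the 13 probes and -0.0019 over all tested probes.

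The brightest, ILMN_2633732, stood at 12.999, 12.87, 12.97 and 12.94 in RES 1W, against 12.58, 12.52, 12.32 and 12.13 in CON 1W. In the older mice it stood at 12.49, 12.61, 12.71 and 12.58 in RES 4W, against 12.48, 12.32 and 12.19 in CON 4W. At both ages the lowest restricted kidney lay above the highest control kidney, by a narrow margin at 7 weeks. The RES 1W mean of 12.94 ± 0.06 was 0.56 above the CON 1W mean of 12.39 ± 0.20 (SD, n = 4 each), with SE 0.11, a limma adjusted p of 0.0084 and an exact permutation p of 0.0286. After 4 weeks the difference was 0.27 (SE 0.12, limma adjusted p = 0.16, exact permutation p = 0.0286), and without RES 4W replicate 1 it was 0.30 (limma adjusted p = 0.083).

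ILMN_3124491 showed the largest restriction difference of the 3 bright Slc12a1 probes. It read 12.96, 12.86, 13.05 and 12.82 in RES 1W kidneys and 12.41, 12.44, 12.12 and 11.94 in CON 1W kidneys. Its levels were 12.49, 12.89, 12.95 and 12.96 in RES 4W kidneys and 12.26, 12.28 and 12.09 in CON 4W kidneys. RES 4W replicate 1 lay between the other RES 4W kidneys and the controls. The RES 1W difference was 0.70 (SE 0.13, limma adjusted p = 0.0072). For RES 4W it was 0.61 (SE 0.14, limma adjusted p = 0.024, exact permutation p = 0.0571), and the call held in 9 of 15 fits that left out an array. Without replicate 1 the difference was 0.72 (limma adjusted p = 0.00087). With replicate 1 as the only RES 4W array the difference was 0.28 (limma adjusted p = 0.81).

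ILMN_2746614, the dimmest of the bright probes, had levels of 12.14, 11.99, 12.21 and 12.24 in RES 1W, against 11.69, 11.70, 11.35 and 11.28 in CON 1W. It had 11.65, 11.98, 12.24 and 11.92 in RES 4W, against 11.58, 11.34 and 11.41 in CON 4W. The groups were apart at both ages, with RES 4W replicate 1 nearest to the controls. The 1-week difference was 0.64 (SE 0.13, limma adjusted p = 0.014). After 4 weeks it was 0.50 (SE 0.14, limma adjusted p = 0.046), a call lost in 11 of 15 fits that left out an array, and 0.60 without RES 4W replicate 1 (limma adjusted p = 0.0045).

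**Figure D1:**
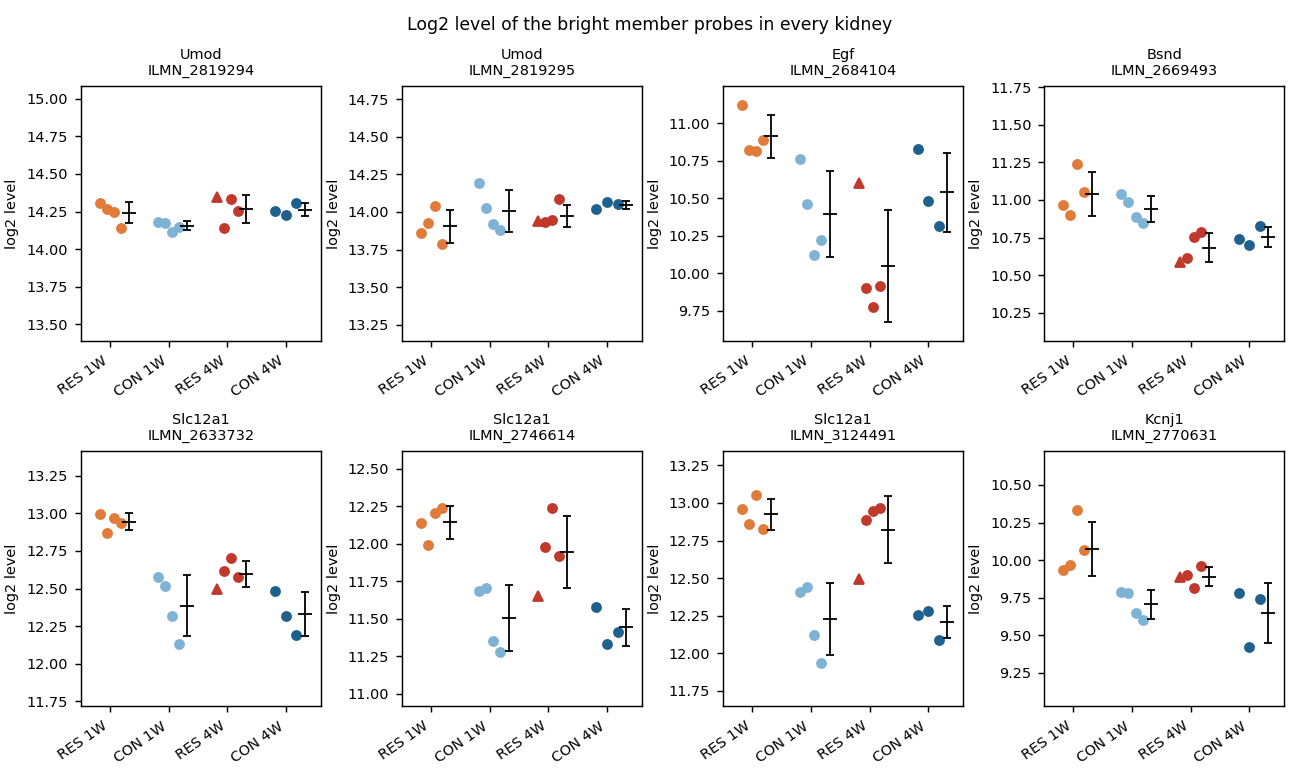
Log2 level (vertical axis, each panel spanning the same range of log2 units but starting at its own level) of the 8 bright probes in each kidney, with RES left of CON at each age. Points are arrays, the triangle is RES 4W replicate 1, and the bar beside each group is the mean with its SD. The 3 Slc12a1 panels and the Kcnj1 panel show restricted kidneys above their controls at both ages, and the Egf panel shows RES 1W high and RES 4W replicates 2 to 4 low.

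The remaining Slc12a1 probes are dim, as are 5 other member probes: none of these 8 exceeded an intensity of 65.1 on any array. ILMN_2522254 read 5.57, 5.86, 6.34 and 5.89 in RES 4W kidneys, against 5.00, 4.75 and 5.09 in CON 4W kidneys, without overlap. That was a log2 fold change of 0.97 (SE 0.18, limma adjusted p = 0.011, exact permutation p = 0.0286), 1.08 without RES 4W replicate 1 (limma adjusted p = 0.00036), and the call held in each of 15 fits that left out an array. At 1 week the same probe read 5.40, 4.97, 5.45 and 5.74 in RES 1W, against 5.02, 5.20, 5.10 and 5.19 in CON 1W, which overlap (0.26, limma adjusted p = 0.53). ILMN_2583228 differed by 0.25 in RES 1W (limma adjusted p = 0.45) and by 0.09 in RES 4W (limma adjusted p = 0.74; 0.14 without replicate 1). ILMN_3048630 was detected on 0 of 15 arrays and has no level above background here, although it is annotated to the same transcript as the bright probes.

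After 4 weeks, 4 of the 13 tested member probes were called and all 4 were higher in RES 4W, which is 30.8% where 6.49% of all tested probes were called (3.63% higher and 2.86% lower). The 4 were Slc12a1 ILMN_3124491, ILMN_2746614 and ILMN_2522254, and a dim Kcnj1 probe, ILMN_1257879. That probe passed the detection filter only through its RES 4W arrays, the group where it is high, so its call supports nothing. Without it 3 of 12 probes were called. These 3 come from 1 gene, Slc12a1, measured on the same arrays, so they are not 3 independent results. A list of 9 thick ascending limb genes that includes the members was also read, from the brightest tested probe of each gene. With all arrays, 0 of its 7 tested genes were called in RES 4W, and 1 (Slc12a1) in RES 1W. Restricted and control kidneys were free of overlap on 6 of the 13 member probes, or 5 of 12 without Kcnj1 ILMN_1257879, against 14.7% of all tested probes. The median log2 fold change was 0.09 over the 13, 0.05 over the 12 and 0.0045 over all tested probes, and without RES 4W replicate 1 it was 0.14 over the 13 and 0.01 over all tested. Without RES 4W replicate 1 the called probes numbered 6, the same 4 higher and 2 lower (Egf ILMN_2684104 and Kcnj1 ILMN_2924677), where both Kcnj1 probes lay at background on some of the arrays compared, and the calls over all probes numbered 4573, or 24.2% of those tested (12.9% higher and 11.3% lower), against 1235 with it. The test of the restriction effect itself between both ages called 0 of 13 member probes with limma (0.583% of all tested probes). The methods' unmoderated fit of the 4 groups also called 0. An unadjusted p under 0.05 was found for 3 of the 13, Egf ILMN_2684104, Slc12a1 ILMN_2522254 and Kcnj1 ILMN_1257879. The last was tested only through its RES 4W arrays, so it supports nothing. The share of all tested probes at that unadjusted level was not taken, so the count is not read further.

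On its bright probe Kcnj1, the potassium channel that works beside the cotransporter, had higher means in the restricted kidneys, by a smaller amount that did not pass the adjusted test, while its dim probes differed from this. The bright probe, ILMN_2770631, read 9.93, 9.97, 10.33 and 10.07 in RES 1W, against 9.79, 9.78, 9.65 and 9.60 in CON 1W. In RES 4W it read 9.89, 9.90, 9.81 and 9.96, against 9.78, 9.42 and 9.74 in CON 4W. Restricted and control kidneys did not overlap at either age. The difference was 0.37 in RES 1W (95% interval 0.14 to 0.60, limma adjusted p = 0.091, exact permutation p = 0.0286) and 0.24 in RES 4W (95% interval -0.01 to 0.49, limma adjusted p = 0.21, exact permutation p = 0.0286). Without RES 4W replicate 1 the RES 4W value was again 0.24.

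The dim Kcnj1 probes gave no single picture. ILMN_1257879 was detected on the 4 RES 4W arrays alone, at intensities of 24.5, 22.0, 26.2 and 11.03, against 2.61, 6.65 and 2.65 on CON 4W arrays, none of which detected it. The lowest detected intensity was 10.7 on RES 4W replicate 4, against 11.6, 13.7 and 13.7 on the CON 4W arrays. The 11.03 would not have counted as detected on those CON 4W arrays. Measured against the dimmest detected signal of the CON 4W arrays the probe was at least 1.24-fold higher in RES 4W. This is given as a description, since the probe was tested only because the RES 4W arrays detected it. ILMN_2924677 ran the other way, at 5.89, 4.60, 4.45 and 5.04 in RES 4W, against 5.86, 5.20 and 5.40 in CON 4W. RES 4W replicates 2 and 3 did not detect it, so the RES 4W mean lies partly at background. The difference of -0.49 was not called (limma adjusted p = 0.32). Without RES 4W replicate 1 it was called (-0.79, limma adjusted p = 0.026), from 3 RES 4W arrays of which 2 were not above background.

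**Figure D2:**
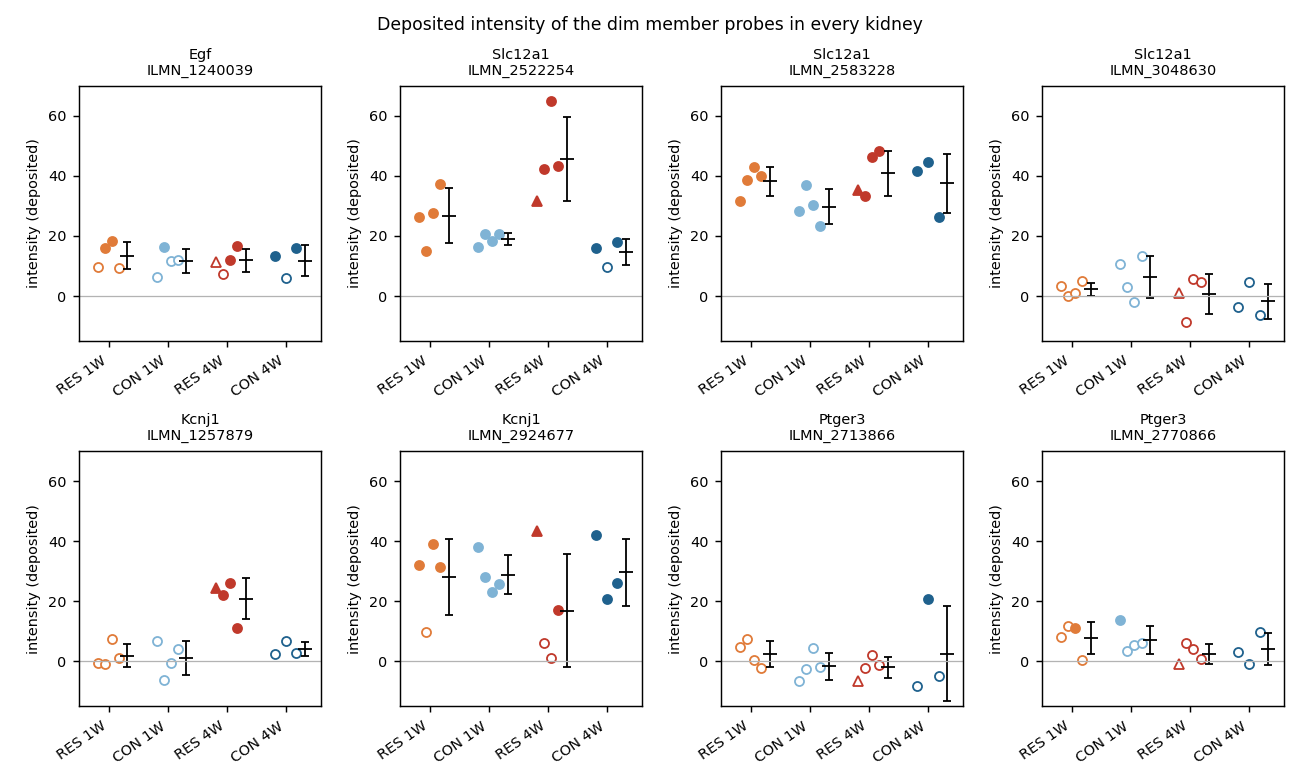
Deposited intensity (vertical axis, linear, background already subtracted) of the 8 dim probes in each kidney, with RES left of CON at each age. Filled symbols are arrays where the probe was detected at p under 0.05, the triangle is RES 4W replicate 1, and the bars are mean and SD. Kcnj1 ILMN_1257879 is filled in RES 4W alone, and both Ptger3 probes are open on nearly every array.

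Bsnd, which encodes the chloride channel subunit at the exit step, showed no call for restriction. Its probe read 10.97, 10.90, 11.24 and 11.05 in RES 1W, against 11.04, 10.99, 10.89 and 10.84 in CON 1W. In the older mice it read 10.59, 10.61, 10.75 and 10.78 in RES 4W, against 10.74, 10.70 and 10.83 in CON 4W. The groups overlap at both ages. The differences were 0.10 (95% interval -0.10 to 0.30, limma adjusted p = 0.74) and -0.07 (95% interval -0.29 to 0.15, limma adjusted p = 0.72; -0.04 without RES 4W replicate 1), so a change as large as that of Slc12a1 after 1 week lies outside both intervals.

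Umod had the highest signal of the 6 genes, at 43.4% to 63.9% of the top intensity on an array. After quantile normalization a level so near the top is set by the probe's rank among the brightest probes. Intensities of ILMN_2819294 therefore recurred exactly, such as 20248.56 on RES 1W replicate 1 and CON 4W replicate 3. How far this narrows the Umod differences and intervals below was not tested. ILMN_2819294 read 14.31, 14.27, 14.25 and 14.14 in RES 1W, against 14.18, 14.17, 14.11 and 14.15 in CON 1W. It read 14.34, 14.14, 14.33 and 14.26 in RES 4W, against 14.26, 14.23 and 14.31 in CON 4W. All 4 groups lay close together and overlapped for restriction. The difference was 0.09 in RES 1W (95% interval -0.09 to 0.26, limma adjusted p = 0.74) and 0.01 in RES 4W (95% interval -0.18 to 0.19, limma adjusted p = 0.98; -0.02 without replicate 1). The second probe, ILMN_2819295, had the opposite sign, at -0.10 in RES 1W (limma adjusted p = 0.73) and -0.07 in RES 4W (limma adjusted p = 0.71; -0.06 without replicate 1).

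Egf, the growth factor gene, differed with opposite signs after 1 and after 4 weeks, and passed the adjusted test at neither age. Its bright probe, ILMN_2684104, read 11.12, 10.82, 10.81 and 10.89 in RES 1W, against 10.76, 10.46, 10.12 and 10.22 in CON 1W. In RES 4W it read 10.60, 9.90, 9.77 and 9.92, against 10.82, 10.48 and 10.31 in CON 4W. Every RES 1W kidney lay above every CON 1W kidney, while RES 4W replicates 2 to 4 lay below every CON 4W kidney and replicate 1 lay among them. The difference was 0.52 in RES 1W (SE 0.18, limma adjusted p = 0.16, exact permutation p = 0.0286) and -0.49 in RES 4W (SE 0.19, limma adjusted p = 0.13, exact permutation p = 0.114).

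The difference of both Egf effects, 4 weeks minus 1 week, was -1.01 (SE 0.26, limma adjusted p = 0.076). Without RES 4W replicate 1 it was -1.19 (limma adjusted p = 0.0019), with -0.67 for RES 4W (limma adjusted p = 0.0070) and 0.52 for RES 1W (limma adjusted p = 0.049). The dim Egf probe ILMN_1240039, detected on 7 of 15 arrays, differed by 0.07 in RES 1W and 0.0026 in RES 4W (0.01 without replicate 1).

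**Figure D3:**
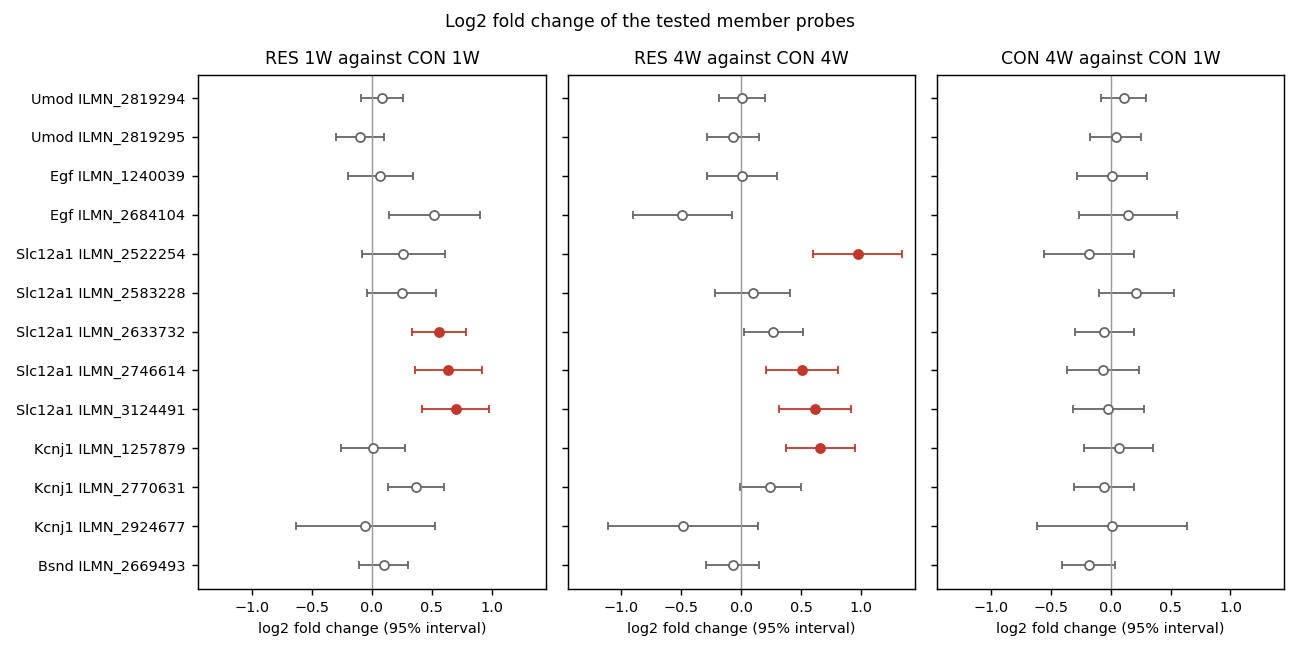
Log2 fold change (horizontal axis) with its 95% interval for the 13 tested probes (rows) in 3 comparisons. Filled red points passed an adjusted p under 0.05 in limma: 3 Slc12a1 probes in RES 1W, 3 Slc12a1 probes and 1 Kcnj1 probe (the dim one tested only through its RES 4W arrays) in RES 4W, and none between CON 4W and CON 1W.

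Ptger3, the prostaglandin receptor, could not be followed. ILMN_2713866 was detected on 1 of 15 arrays, a CON 4W kidney at an intensity of 20.7, and ILMN_2770866 on 2 arrays with a highest intensity of 13.9. No fold change is given for it.

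Between the control ages, 0 of 13 member probes were called by limma (2.97% of all tested probes were, 1.18% higher and 1.79% lower), 0 had an unadjusted p under 0.05, and the methods' unadjusted test passed 2. The share of all tested probes passing that unadjusted test is not given, so this count is not read further. On 2 of the 13 the ages were free of overlap, against 16.7% of all tested probes. These were Umod ILMN_2819294, at 14.26 ± 0.04 in CON 4W (SD, n = 3) and 14.16 ± 0.03 in CON 1W (SD, n = 4), and Bsnd, at 10.76 ± 0.07 in CON 4W and 10.94 ± 0.09 in CON 1W. The log2 fold changes were 0.11 (limma adjusted p = 0.59) and -0.18 (limma adjusted p = 0.40).

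Ordered by mean level, Slc12a1 ILMN_2633732 ran RES 1W, RES 4W, CON 1W, CON 4W, and the only neighbours without overlap were RES 1W and RES 4W. For ILMN_3124491 the order was the same, and the gap lay between RES 4W and CON 1W. Kcnj1 ILMN_2770631 had that order and that gap too. Slc12a1 ILMN_2746614 shared the order, but every neighbouring pair overlapped. The orders given here include RES 4W replicate 1. Egf ran RES 1W, CON 4W, CON 1W, RES 4W with every neighbouring pair overlapping, and Bsnd ran RES 1W, CON 1W, CON 4W, RES 4W with a gap between CON 1W and CON 4W.

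Across the 15 kidneys, levels of Slc12a1 (ILMN_2633732) and Kcnj1 correlated at r = 0.80, and at 0.84 over the 11 kidneys outside RES 4W. For Egf and Slc12a1 the values were 0.48 over 15 and 0.87 over 11, and for Kcnj1 and Bsnd 0.52 and 0.84. Umod correlated at 0.20 with Slc12a1 over the 15. These are descriptions: the points share groups, arrays and the quantile normalization, and a difference between groups enters each of them.

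**Figure D4:**
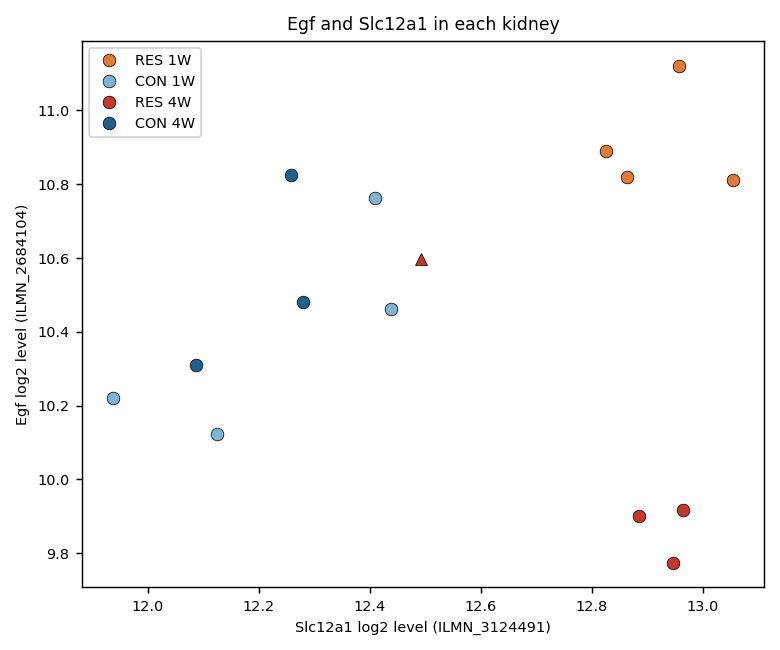
Egf level (vertical axis, log2, ILMN_2684104) against Slc12a1 level (horizontal axis, log2, ILMN_3124491), 1 symbol per kidney, with the triangle for RES 4W replicate 1. RES 1W kidneys are high on both axes, whereas RES 4W replicates 2 to 4 combine high Slc12a1 on this probe (12.89 to 12.96) with Egf at 9.77 to 9.92. On ILMN_2633732, the probe of the correlations, these 3 kidneys stood at 12.58 to 12.71, below the RES 1W kidneys (12.87 to 12.999). CON 1W replicate 1 stood at 12.58 there.

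By the same correlation over 15 kidneys, the named probes most like Slc12a1 ILMN_2633732 were Slc2a1 (r = 0.95), a glucose transporter, Pcsk6 (0.95), a proprotein convertase, and Pfkl (0.94), a phosphofructokinase, and each stood at 0.97 over the 11 kidneys outside RES 4W. Closest to Kcnj1 were Ncdn, Mgat4a and Msl2, at 0.92, 0.90 and 0.90 (0.94, 0.90 and 0.93 over 11). Those closest to Egf were Mbd1, Ppat and Cpeb4, each at 0.92 (0.91, 0.83 and 0.86 over 11). Umod had looser neighbours, Dpp8, Arid3b and Ngb, at 0.86, 0.80 and 0.79 (0.95, 0.78 and 0.75 over 11), as did Bsnd, with Sema5a, Crip2 and Dmtn at 0.86, 0.83 and 0.83 (0.79, 0.85 and 0.79 over 11).

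The other genes of the pathway were taken from a list of 35, of which 26 could be tested, 4 were too dim and 5 had no named probe. After 1 week 1 of the 26 rose and none of the other 25 passed, a share (3.85%) near the 2.81% of all tested probes, with a median log2 fold change of 0.11 (-0.0019 over all tested probes). It was Irx2, a homeobox factor, at a mean of 9.68 in RES 1W, against 8.96 in CON 1W (0.71, SE 0.12, limma adjusted p = 0.0033). The kinases that phosphorylate NKCC2 had values of 0.17 (Stk39, SPAK) and 0.19 (Oxsr1, OSR1), with limma adjusted p of 0.67 and 0.46. The claudins of the paracellular path had 0.19 (Cldn16), 0.25 (Cldn19) and -0.08 (Cldn10), with limma adjusted p of 0.50, 0.22 and 0.82.

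After 4 weeks 3 of the 26 rose and 1 fell, 15.4% where 6.49% of all tested probes were called, with a median of 0.15 (0.0045 over all tested probes). Irx1, a relative of Irx2, rose by 1.40 (SE 0.27, limma adjusted p = 0.013), Hpn, the protease hepsin that releases uromodulin from the membrane, by 0.77 (SE 0.16, limma adjusted p = 0.020), and Adcy6, an adenylyl cyclase downstream of the vasopressin receptor, by 0.49 (SE 0.13, limma adjusted p = 0.040). Slc12a7, a potassium-chloride cotransporter, fell by 0.54 (SE 0.15, limma adjusted p = 0.042). Without RES 4W replicate 1, 9 rose and 2 fell, 42.3% where 24.2% of all tested probes were called. Those 4 genes then stood at 1.55 (Irx1), 0.95 (Hpn), 0.63 (Adcy6) and -0.61 (Slc12a7). Also higher were Irx2 (0.43), Pou3f3 (0.88), a POU factor, Sorl1 (0.52), a sorting receptor, Maged2 (0.26), Cldn16 (0.38) and Cldn19 (0.39). Kcnj16, a basolateral potassium channel subunit, was lower (-0.35, limma adjusted p = 0.036), and Cldn10 had -0.21 (limma adjusted p = 0.19). In CON 4W compared to CON 1W 1 gene fell (3.85%, against 2.97% of all tested probes), Maged2, which promotes NKCC2 at the membrane (-0.40, limma adjusted p = 0.027).

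**Figure D5:**
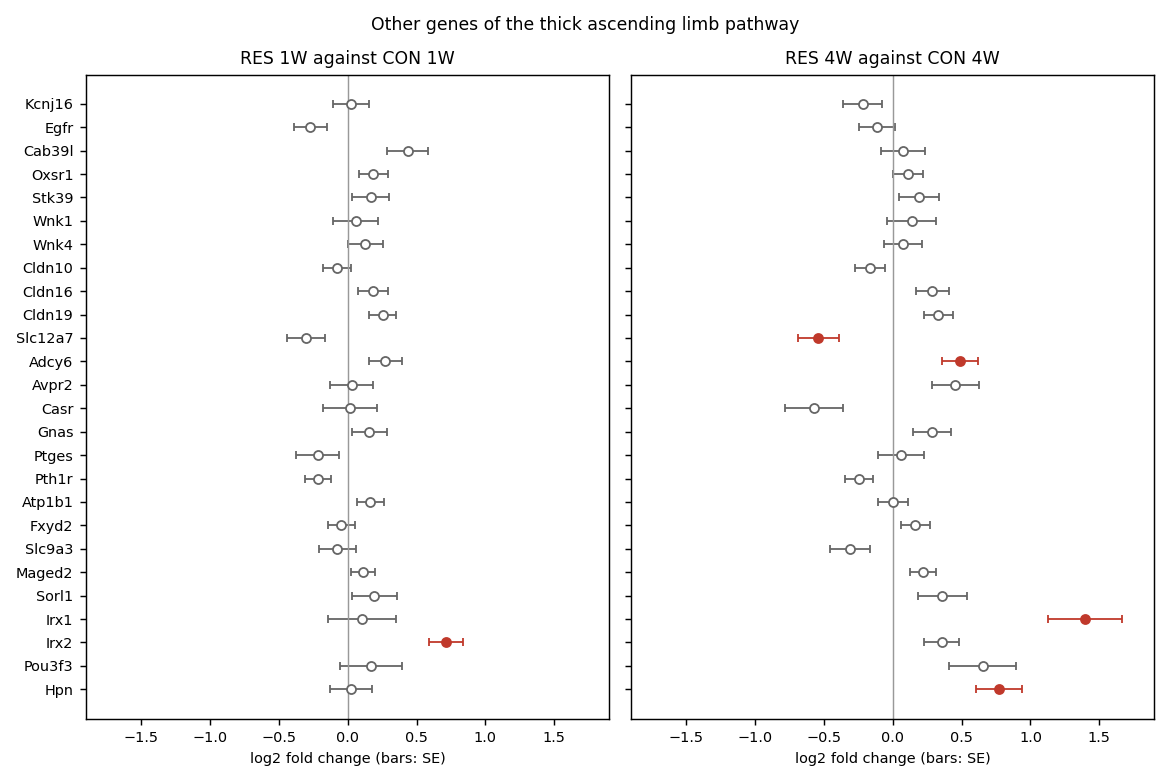
Log2 fold change (horizontal axis, bars are SE) of the 26 tested genes of the pathway list (rows) in RES 1W against CON 1W (left) and RES 4W against CON 4W (right). Filled red points passed an adjusted p under 0.05: Irx2 on the left, Slc12a7, Adcy6, Irx1 and Hpn on the right.

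Markers of other segments and cell types also differed between groups, and their part in the member results was not tested. Sums below are of linear levels over a list's tested genes, and those of RES 4W without replicate 1 are named as replicates 2 to 4. A list of 9 thick ascending limb genes that includes the members, 7 of them tested, summed to 41988 to 45255 in RES 1W, against 37810 to 43479 in CON 1W. At 7 weeks it summed to 38589 to 43043 in RES 4W (38589 to 41560 in replicates 2 to 4), against 40400 to 42198 in CON 4W, so the sums overlapped at both ages. Umod weighs most in this sum, so the overlap does not speak for each gene. Mean intensities were 18230 in CON 1W and 19359 in RES 1W for Umod ILMN_2819294, against 5374 and 7871 for Slc12a1 ILMN_2633732. Of 5 distal convoluted tubule markers 4 were tested, and 2 fell in RES 1W, with sums of 6203 to 7486, against 7261 to 8817 in CON 1W, while Slc12a3, the cotransporter that defines that segment, differed by -0.04 (limma adjusted p = 0.94). In RES 4W 1 of the 4 rose and 1 fell, with sums of 6125 to 6834 with or without replicate 1, against 6401 to 7452 in CON 4W.

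The 6 principal cell markers summed to 4225 to 4646 in RES 1W, against 3662 to 3869 in CON 1W, and to 3936 to 5692 in RES 4W (4640 to 5692 in replicates 2 to 4), against 3274 to 3796 in CON 4W. Aqp2, the vasopressin-regulated water channel, led both, at 1.46 in RES 1W (limma adjusted p = 0.0020) and 2.11 in RES 4W (limma adjusted p = 0.00070). Aqp3 also rose in RES 1W (0.50, limma adjusted p = 0.0049), and Aqp4 had 0.48 without a call (limma adjusted p = 0.056). Fxyd4 (-0.34), Scnn1b (-0.27) and Scnn1g (-0.04) had values below 0 in RES 1W and were not called. In RES 4W the other 5 were not called, among them Aqp3 (0.25), Aqp4 (0.12) and Fxyd4 (-0.03). The median over the 6 was 0.05 in RES 4W, so the RES 4W sums do not speak for each marker. Of 6 inner medulla and thin limb markers 2 were tested. Aqp1, which the proximal tubule also expresses, rose in RES 1W (0.53, limma adjusted p = 0.020) and had -0.28 in RES 4W (limma adjusted p = 0.19). Without replicate 1 the RES 4W value was called lower (-0.37, limma adjusted p = 0.031). The difference of both Aqp1 effects, 4 weeks minus 1 week, was called with all arrays (-0.81, limma adjusted p = 0.047), where 0.583% of all tested probes were. Slc14a2 had 0.35 in RES 1W and -0.02 in RES 4W.

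Of 8 proximal tubule markers Slc22a6 fell in RES 1W (-0.49, limma adjusted p = 0.011), and Slc5a2 (0.96, limma adjusted p = 0.0097) and Slc5a12 (0.62, limma adjusted p = 0.014) rose in RES 4W. The other 7 in RES 1W and 6 in RES 4W were not called. The median log2 fold change of the 8 was -0.04 in RES 1W and -0.08 in RES 4W. Sums over the 8 were 52755 to 57926 in RES 1W, against 55610 to 65391 in CON 1W, and 58238 to 62688 in RES 4W (58238 to 59872 in replicates 2 to 4), against 61779 to 65262 in CON 4W. Podocyte markers, 3 of 5 tested and none called with all arrays, summed to 2531 to 3204 in RES 1W, against 2122 to 2458 in CON 1W. They summed to 2392 to 2732 in RES 4W (2392 to 2500 in replicates 2 to 4), against 1900 to 2321 in CON 4W. The sums did not overlap at either age. In RES 4W the 3 genes differed, with 0.37 for Synpo (limma adjusted p = 0.051), 0.02 for Nphs1 and -0.0044 for Podxl. Without replicate 1 Synpo was called (0.39, limma adjusted p = 0.021), and Nphs1 had 0.08 and Podxl -0.17. Of 6 endothelial markers Pecam1 rose in RES 4W (0.55, limma adjusted p = 0.027), and the other 5, from -0.16 (Kdr) to 0.19 (Emcn), were not called. Sums over the 6 were 5354 to 5937 in RES 4W (5476 to 5937 in replicates 2 to 4), against 5030 to 5320 in CON 4W, and 5542 to 6494 in RES 1W, against 5528 to 6061 in CON 1W. Intercalated cell, fibroblast and leukocyte markers had no call for restriction with all arrays. Without RES 4W replicate 1, Atp6v1b1 of the intercalated cell (0.80, limma adjusted p = 0.027) and Csf1r of the leukocytes (0.56, limma adjusted p = 0.0034) were called higher in RES 4W. In that fit 24.2% of all tested probes were called, and the other tested markers of these lists were not.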

How the data were processed

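Kidney RNA of 15 mice was hybridized to Illumina MouseWG-6 arrays. The authors exported intensity values from GenomeStudio 1.0.2, and the deposited intensities were already background-subtracted and quantile-normalized (34.9% were at or below 0). Each deposited detection p-value compares a probe with the array's negative control beads. The deposited series table gives these intensities as log2 values, with gaps below an intensity of 5.

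The neqc function (limma 3.58.1, R 4.3.3) turned intensities into log2 levels with an offset of 16 and quantile normalization, a further correction of already corrected values. Group means over 15 arrays were fitted with lmFit and eBayes. All tests were two-sided. The members and gene lists were chosen with earlier results of these data known. Genes of lists were read from their brightest tested probe, and the genes named were the members, every called pathway gene, the 3 most correlated probes of each bright member, and Stk39, Oxsr1, Cldn10, Cldn16, Cldn19 and the marker genes, which were added after their values were seen. Each mouse was a separate array, so array number limits the precision. Alternatives covered background, offset, scaling, filter, samples fitted, array weights, the methods' tests, the replicate block and leaving out each array. Calling was tested on simulated data. Published comparisons and protein blots were not used here.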

Additional observations from a re-analysis of the deposited data

Results flagged for a closer look

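Of 39 groups of 4 kidneys examined (13 tested probes), 2 held a kidney far from the rest of its group, and chance alone gives about 1 in 20 groups. For Slc12a1 ILMN_3124491, RES 4W replicate 1 was low at 12.49, whereas the other 3 RES 4W kidneys lay between 12.89 and 12.96. For Umod ILMN_2819295, RES 4W replicate 4 was high at 14.08, whereas the other 3 lay between 13.93 and 13.95.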

How the results depend on the processing

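The count of called member probes in RES 1W (3) ran from 2 to 4 when an array was left out, where calls over all probes ran from 290 to 822. It was 0 with the methods' ANOVA at its own thresholds (a false discovery rate of 0.01 and 1.5-fold), a fit without moderation, and 0 with the methods' t-test after adjustment, where 5 passed unadjusted. In RES 4W (4) it ran from 1 to 6 without 1 array (6 without RES 4W replicate 1; 1 without RES 4W replicate 2 or 3 or CON 4W replicate 1 or 3; 2 without RES 4W replicate 4 or CON 4W replicate 2). It was 2 with the authors' processed values, 2 with the methods' ANOVA, 0 with that ANOVA at its own thresholds, 0 with the methods' t-test after adjustment, 0 with only the groups compared and 7 (5 higher, 2 lower) with array weights. With RES 4W replicate 1 as the single RES 4W array, an alternative chosen after seeing the data, it was 0, with the spread taken from the other groups. Between control ages (0) the methods' t-test passed 2 unadjusted, and leaving out an array gave 0 each time. Shares of all tested probes passing unadjusted are not given, so the unadjusted counts here and in RES 1W are not read further. For the difference between ages (0) the count was 2 with array weights, 1 with the replicate block, and 0 to 3 without 1 array (3 without RES 4W replicate 1). Calls over all probes for that difference ran from 16 to 2857 without 1 array. No member value called in the main fit changed sign under these alternatives. Values near 0 that were not called did, such as Umod ILMN_2819294 (-0.02 to 0.05) and Slc12a1 ILMN_2583228 (-0.07 to 0.19) in RES 4W without 1 array. Larger uncalled values also changed sign with RES 4W replicate 1 as the single RES 4W array. Its Egf ILMN_2684104 level was 10.60, against a CON 4W mean of 10.54, and its Kcnj1 ILMN_2924677 level 5.89, against 5.48. With all arrays both differences were -0.49. The cause was not tested.

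Same-numbered arrays did not deviate together (correlations from -0.12 to 0.19 over 21 pairs, median 0.01). The labels state no pairing of the mice, and these correlations cannot exclude one. The main fit used no pairing. With the replicate block, 4 member probes were called in RES 1W and 4 in RES 4W, Egf among them (adjusted p = 0.019 and 0.045), and Slc12a1 ILMN_2746614 was not called in RES 4W (adjusted p = 0.076). Of the 26 pathway genes 4 were called in RES 4W, and 1 to 11 without 1 array (11 without RES 4W replicate 1), 11 with array weights, 2 with no filter, the methods' ANOVA or the replicate block, and 0 with only the groups compared, the ANOVA at its own thresholds or the adjusted t-test. Over all probes RES 4W calls (1235) ran from 169 to 4573 without 1 array, the highest without RES 4W replicate 1, and were 3 with only the groups compared. For the other alternatives calls over all probes are not given, so member and pathway counts under them are not read further. A block for the array slide was not run, since the headers tie no array to a slide. Probes not detected on every array (7 of 16) limit what can be said of Ptger3, Egf ILMN_1240039, Slc12a1 ILMN_2522254 and ILMN_3048630, and 2 of the 3 Kcnj1 probes.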
